A study of Homo sapiens with 12 samples.

Results

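The sterol and fatty acid synthesis genes described here are 32 of the 56269 genes of a count table from HCC1954 cells, a line from a human breast tumour that carries extra copies of ERBB2 (HER2). They were chosen by gene symbol and fall into 18 enzymes of sterol synthesis, 5 genes that regulate or carry sterols, and 9 genes of fatty acid synthesis and handling. All 32 passed the filter on low counts that left 12504 genes. RNA was sequenced from 12 cultures kept for 24 h with one of 4 treatments, each in 3 biological repeats. These were a combination of SNXB and lapatinib, 1 µM SNXB, 1 µM lapatinib, and DMSO. SNXB is named only by its code, lapatinib inhibits the EGFR and ERBB2 kinases, and DMSO is the solvent. How much of each agent the combination held is not stated in the labels. All cultures were of 1 cell line, grown in medium with fetal bovine serum, which itself brings in sterols and fatty acids. The count columns carry library names from S13 to S24 that occur in no label, so no library was assigned to a treatment. For this reason each value below stands for 1 library, no test was run, and no mean or error between repeats is given.

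Cells make cholesterol from acetyl-CoA through mevalonate, the isoprenoid farnesyl diphosphate, squalene and lanosterol. Fatty acids are built from the same acetyl-CoA, extended and desaturated. The transcription factors SREBF2 and SREBF1 drive these genes. SCAP escorts both factors out of the endoplasmic reticulum when sterol is scarce, and INSIG1 holds them back when sterol is plentiful. SREBF2 is known mainly for the sterol genes, and the shorter form of SREBF1 mainly for the fatty acid genes. The counts are of RNA per gene, so neither the cleaved, active form of these factors nor the forms of SREBF1 were measured.

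Sequence upstream of the gene start was available for 28 of the 32 members, from RefSeq on GRCh38.p14, and for none of SQLE, FDFT1, ACAT2 and FASN. The letters CCAAT, the core bound by the factor NF-Y, occurred on either strand within 250 bases upstream in 19 of 28 members, against 33.0% of all 27305 promoters. They occurred in 12 of 15 sterol enzymes, 3 of 5 regulators and 4 of 8 fatty acid genes. The letters GGGCGG, the core of Sp1 sites, occurred in 26 of 28 members, against 42.3% of all promoters. The letters CACNCCAC, part of the classical sterol response element bound by the SREBF factors, occurred in 3 of 28 members (SREBF2, INSIG1 and SCD), against 4.72% of all promoters. The longer TCACNCCAC, which contains them, occurred in SREBF2 alone among the members and in 0.875% of all promoters. The 27305 promoters were not limited to genes past the filter on low counts, whereas all members passed it, so the sets are unlike. The shares among genes past the filter were not computed. A match is a run of letters and does not show that a factor bound there, and letters outside these windows were not searched.

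Stretches from 7 promoters are shown, from genes described below that had CCAAT upstream of all their counted exons. They are HMGCS1, the most abundant sterol enzyme (chr5:43313538-43313592, minus strand), MVD (chr16:88663162-88663275, minus strand), TM7SF2 (chr11:65111773-65111827, plus strand), SREBF2 (chr22:41832947-41833028, plus strand), INSIG1 (chr7:155297645-155297737, plus strand), STARD4 (chr5:111512636-111512721, minus strand) and SCD (chr10:100346983-100347076, plus strand). Each is written 5′ to 3′ on the strand of its gene. Capitals mark CCAAT or its reverse complement ATTGG, in SREBF2 also the match to TCACNCCAC, and in INSIG1 also the match to CACNCCAC on the other strand. The match in SCD lies outside the stretch shown. Because only stretches with a match are shown, all of them carry CCAAT. CYP51A1, SREBF1, ELOVL6 and FADS1, whose values are also given below, had no CCAAT in their windows.
HMGCS1: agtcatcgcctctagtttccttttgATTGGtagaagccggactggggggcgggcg
MVD: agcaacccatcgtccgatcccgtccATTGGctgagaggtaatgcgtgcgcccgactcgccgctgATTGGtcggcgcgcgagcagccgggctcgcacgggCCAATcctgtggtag
TM7SF2: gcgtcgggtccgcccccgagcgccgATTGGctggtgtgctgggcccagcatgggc
SREBF2: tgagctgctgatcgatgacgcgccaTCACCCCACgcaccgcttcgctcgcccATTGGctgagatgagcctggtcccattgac
INSIG1: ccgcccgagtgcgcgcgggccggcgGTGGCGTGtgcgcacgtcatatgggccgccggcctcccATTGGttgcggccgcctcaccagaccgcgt
STARD4: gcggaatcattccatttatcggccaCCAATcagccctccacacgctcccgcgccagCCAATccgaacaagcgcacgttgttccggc
SCD: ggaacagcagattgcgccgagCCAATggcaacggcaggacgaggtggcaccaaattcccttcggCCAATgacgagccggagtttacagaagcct

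The libraries held 9289353 to 12219397 counted fragments (median 11207119). Libraries S21, S22, S23 and S24 had 20720 to 21295 genes with at least 1 fragment, and the other 8 had 22890 to 24681, at overlapping totals. Because these 4 libraries stood apart, the counts of members and the correlations of the arms are given with and without them. ERBB2 (3869 to 9322 CPM, counts scaled to the library total in the usual way) and the epithelial keratin KRT8 (3892 to 8918 CPM) were abundant in every library. HCC1954 is an epithelial line with amplified ERBB2. Of the other listed markers of this line, KRT18 (1384 to 2917 CPM), GRB7 (841.8 to 1730 CPM) and CDH1 (647.1 to 1004 CPM) were lower. EPCAM had 222.8 to 365.8 CPM and KRT5 154 to 413 CPM, while the keratin KRT19 was low at 13.75 to 38.26 CPM. The 5 blood markers summed to 0 to 0.711 CPM, with HBB and LYZ at 0. The 5 fibroblast markers summed to 6.78 to 14.8 CPM, nearly all COL1A1, with DCN and LUM at 0. The 4 endothelial markers summed to 48.7 to 144 CPM, mostly PECAM1 and CDH5. Together the members took 0.366% to 0.879% of all fragments.

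Levels of different genes were compared as RPKM, CPM of the library total per kilobase of exon. SCD, which puts the first double bond into saturated fatty acids, was highest of the members at a median of 245 RPKM and ranked 95th of the 12504 genes. FASN, the fatty acid synthase, followed at 114.8 RPKM, and HMGCS1, which makes HMG-CoA ahead of mevalonate, at 84.9 RPKM. ACLY, which makes cytosolic acetyl-CoA from citrate, had a median of 63.0 RPKM, and DHCR7, the last reductase on the way to cholesterol, 50.4 RPKM. At the other end, the desaturases FADS2 and FADS1 had medians of 1.38 and 0.655 RPKM, and the lanosterol demethylase CYP51A1 had 0.934 RPKM. Most exonic bases of CYP51A1 are shared with other genes, so its place in this order is uncertain and may be too low. The ranges of neighbours in this order overlapped except for ACSL3 (16.6 to 21.6 RPKM) and SCAP below it (13.2 to 15.2 RPKM), and the order of the members was the same in TPM. Within sterol synthesis the levels were uneven, with MVK, the mevalonate kinase, at 3.93 RPKM between HMGCS1 upstream and MVD downstream at 24.5 RPKM.

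**Figure D1:**
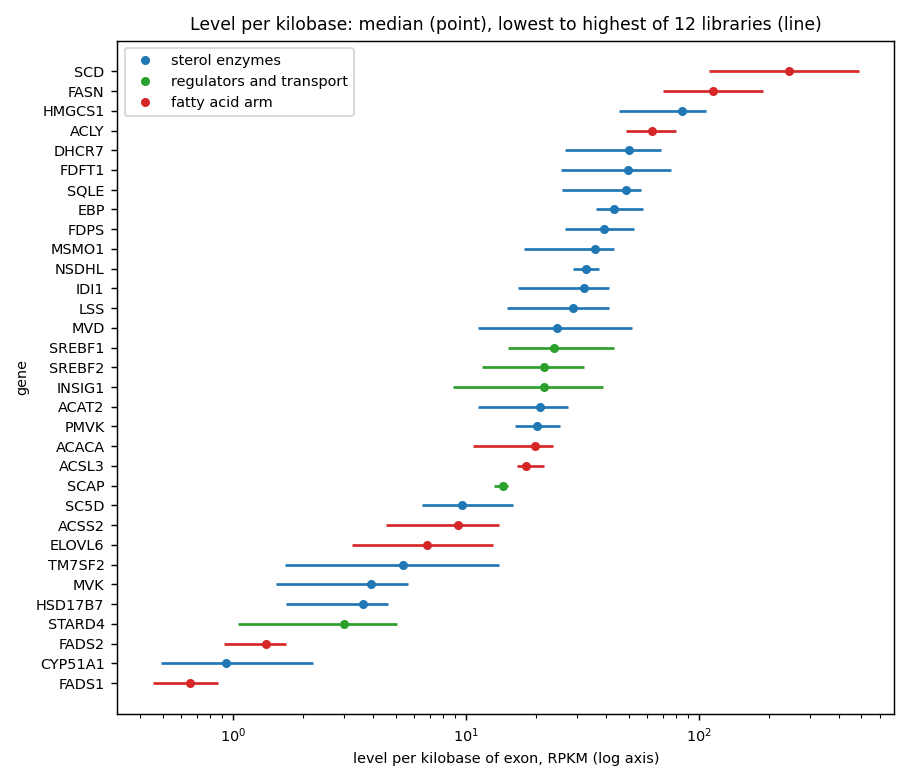
Level of each of the 32 members in RPKM on a log axis, with the median as a point and a line from the lowest to the highest of 12 libraries. SCD and FASN lie at the top and CYP51A1 and FADS1 at the bottom, and the lines of neighbours overlap except for those of ACSL3 and SCAP. The level of CYP51A1 may be too low because most of its exonic bases are shared with other genes.

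Some members share exons with other genes. CYP51A1 shared 82.2% of its exonic bases with other genes, mainly LRRD1 on the same strand, and had 23 to 110 fragments per library. ACAT2, which joins a pair of acetyl-CoA molecules, shared 52.3%, mainly with SOD2 on the opposite strand. FDPS shared 18.6%, IDI1 17.9% and HMGCS1 14.95%, mainly with features on the opposite strand. Counting used neither strand nor an option for fragments that overlap several genes, so the levels of these 5 genes are uncertain. FADS1 and FADS2 are overlapping neighbours on opposite strands and shared 4.79% and 4.89%.

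How far each gene varied was measured as its highest over its lowest library, on CPM scaled by TMM factors (scaled CPM). Of the 32 members, 28 spanned 1.5-fold or more, against 76.5% of the 12504 genes, and 23 spanned 2-fold or more, against 40.8%. Among the 11039 genes with a median of 50 fragments or more, whose counting error is smaller than that of the rest, those shares were 73.5% and 34.6%. The median span was 2.29-fold for the sterol enzymes, 2.66-fold for the regulators and 2.04-fold for the fatty acid genes, beside 1.82-fold for all genes. Without the 4 libraries with the fewest detected genes, 18 members spanned 1.5-fold (59.3% of all genes) and 7 spanned 2-fold (24.3% of all genes). Both counts were then no larger a share of the members than of all genes. S16 was the highest library for 11 of the 32 members and S15 for 9, against 10.8% and 12.1% of all genes. S22 was the lowest for 13 members and S21 for 8, against 15.3% and 11.8% of all genes.

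**Figure D2:**
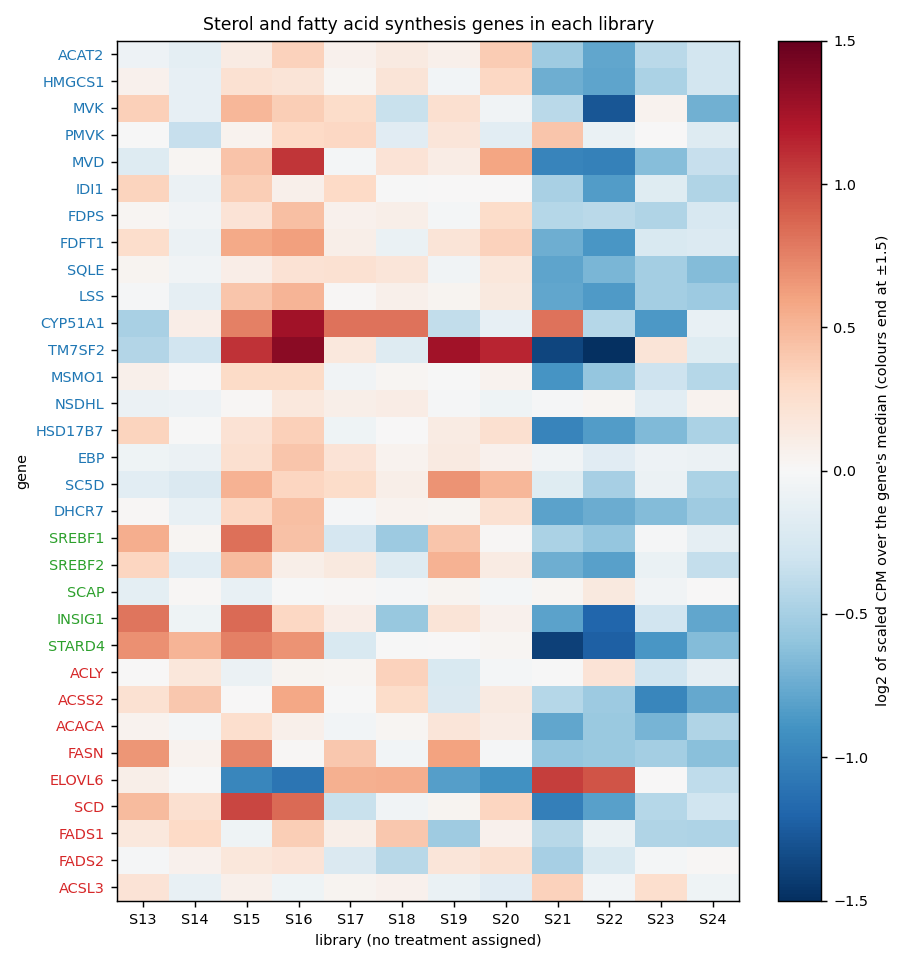
Log2 of the scaled CPM of each member over its own median, for each of 12 libraries, with the colours ending at 1.5 either way. Gene names are blue for sterol enzymes, green for regulators and red for fatty acid genes. Most sterol enzymes are darkest red in S16 and blue in S21 and S22, while ELOVL6 runs the other way.

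Among the sterol enzymes, TM7SF2, a sterol C14-reductase, spanned the most at 7.77-fold (95% interval 5.99 to 10.2, for counting error only). It had 46.7 scaled CPM in S16, 43.6 in S19, 40.3 in S20 and 38.7 in S15. It had 20.9 scaled CPM in S23, 20.4 in S17, 16.1 in S24, 15.9 in S18, 14.9 in S14, 13.5 in S13, 6.999 in S21 and 6.01 in S22. The 4 highest libraries thus lay well clear of the other 8, and S21 and S22 lay below the rest.

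MVD, the mevalonate diphosphate decarboxylase, spanned 4.27-fold. It had 240.5 scaled CPM in S16, 171.3 in S20, 153.4 in S15, 131.4 in S18, 122.9 in S19, 116.6 in S14, 111.3 in S17 and 99.4 in S13. It had 89.9 scaled CPM in S24, 73.2 in S23, 57.2 in S21 and 56.3 in S22. S16 stood alone at the top, and S21 to S24 were the 4 lowest libraries.

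MVK spanned 3.44-fold, with 35.8 scaled CPM in S15, 32.7 in S16, 32.4 in S13, 30.6 in S17, 29.9 in S19, 26.2 in S23, 24.4 in S20 and 23.2 in S14. It had 20.1 scaled CPM in S18, 19.1 in S21, 15.4 in S24 and 10.4 in S22. Here S23 lay among the upper libraries. HMGCS1 spanned 2.15-fold and had 486.3 scaled CPM in S20, 458.8 in S15, 447.3 in S18, 446.8 in S16, 407.8 in S13, 400.7 in S17, 381.8 in S19 and 359.6 in S14. It had 323.9 scaled CPM in S24, 282.7 in S23, 236.2 in S21 and 226.5 in S22. The 8 upper libraries of HMGCS1 lay within 1.35-fold of each other.

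CYP51A1 spanned 4.35-fold, but on few fragments. It had 8.88 scaled CPM in S16, 6.55 in S17, 6.53 in S21, 6.52 in S18 and 6.26 in S15. It had 3.99 scaled CPM in S14, 3.44 in S24, 3.42 in S20, 2.87 in S19, 2.77 in S22, 2.65 in S13 and 2.04 in S23. S21, the lowest or next to lowest library for most sterol enzymes, was the third highest for CYP51A1.

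The other sterol enzymes spanned from 1.24-fold in NSDHL to 2.79-fold in FDFT1. FDFT1, the squalene synthase, had 140.2 scaled CPM at lowest, a median of 255.9 and 391.2 at highest. LSS, the lanosterol synthase, spanned 2.56-fold, the sterol dehydrogenase HSD17B7 2.55-fold, DHCR7 2.38-fold, IDI1 (isopentenyl diphosphate isomerase) 2.30-fold, SC5D (a sterol desaturase) 2.27-fold and the methyl sterol oxidase MSMO1 2.25-fold. ACAT2 spanned 2.22-fold, the squalene epoxidase SQLE 2.02-fold and the farnesyl diphosphate synthase FDPS 1.87-fold. PMVK, the phosphomevalonate kinase, spanned 1.70-fold, and EBP, a sterol isomerase, 1.497-fold. NSDHL, which acts in removal of the C4 methyl groups of sterols, ranged only from 58.8 to 73.1 scaled CPM. PMVK was highest in S21, where 4 sterol enzymes had their lowest value.

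Among the regulators, STARD4, which carries cholesterol through the cytosol, spanned 4.46-fold. It had 28.2 scaled CPM in S15, 26.8 in S13, 26.6 in S16 and 23.8 in S14. It had 17.1 scaled CPM in S20, 16.8 in S19, 16.6 in S18, 14.2 in S17, 10.7 in S24, 9.14 in S23, 7.16 in S22 and 6.34 in S21. The values fell in 3 steps of 4 libraries: S13 to S16, then S17 to S20, then S21 to S24, with no overlap between the steps.

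INSIG1 spanned 4.11-fold, with 138.8 scaled CPM in S15, 133.7 in S13, 95.6 in S16, 88.1 in S19, 82.0 in S17, 80.2 in S20 and 73.4 in S14. It had 62.9 scaled CPM in S23, 51.8 in S18, 44.7 in S24, 43.9 in S21 and 33.8 in S22. S15 and S13 lay well above the others. SREBF1 spanned 2.66-fold, with 340.7 scaled CPM in S15, 279.4 in S13, 259.9 in S16, 256.3 in S19, 196.4 in S14, 193.7 in S20, 190.2 in S23 and 175.1 in S24. It had 161.5 scaled CPM in S17, 138.1 in S21, 131.5 in S18 and 128.1 in S22. S17 and S18 were thus among the low libraries for SREBF1, although not for most sterol enzymes.

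SREBF2 spanned 2.52-fold, between 93.9 and 236.7 scaled CPM with a median of 165.0. SCAP was the flattest member at 1.23-fold, between 81.4 and 99.8 scaled CPM. Per kilobase, SREBF1 stood at 1.397 times SREBF2 in S15 and 1.39 times in S16, and at 0.829 and 0.857 times in S17 and S18. S19 and S20 had ratios of 1.02, and the other libraries lay between 1.16 and 1.31.

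In the fatty acid arm, ELOVL6, which extends palmitate to stearate, spanned 4.36-fold. It had 101.6 scaled CPM in S21, 95.2 in S22, 72.3 in S18, 71.8 in S17, 52.9 in S13, 49.9 in S23, 49.5 in S14 and 38.2 in S24. It had 27.9 scaled CPM in S19, 26.4 in S20, 25.2 in S15 and 23.3 in S16. Its 4 lowest libraries were the 4 highest of TM7SF2, and its highest pair was the lowest pair of TM7SF2. Over the 12 libraries the log2 CPM of TM7SF2 and ELOVL6 had r = -0.91 and Spearman's rho = -0.85, and over the 8 libraries without S21 to S24 r = -0.89. This pair was picked after the values were seen.

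SCD spanned 4.08-fold, with 2576 scaled CPM in S15, 2318 in S16, 1787 in S13, 1609 in S20, 1523 in S14, 1326 in S19, 1243 in S18 and 1048 in S24. It had 1015 scaled CPM in S17, 952.3 in S23, 732.6 in S22 and 630.9 in S21. S15 and S16 stood apart at the top. ACSS2, which makes acetyl-CoA from acetate, spanned 2.93-fold and had 73.5 scaled CPM in S16, 65.1 in S14, 59.8 in S18, 57.6 in S13, 54.0 in S20, 49.5 in S15, 49.1 in S17 and 42.4 in S19. It had 36.7 scaled CPM in S21, 33.8 in S22, 28.9 in S24 and 25.1 in S23. S21 to S24 were the 4 lowest libraries for ACSS2.

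FASN spanned 2.58-fold, and its values fell into 3 bands. It had 1747 scaled CPM in S15, 1660 in S13, 1593 in S19 and 1381 in S17. It had 1020 to 1090 scaled CPM in S14, S16, S18 and S20, and 677.1 to 735.9 in S21 to S24. SCD did not share these bands, so that SCD per kilobase ranged from 1.28 times FASN in S17 to 3.81 times in S16.

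**Figure D3:**
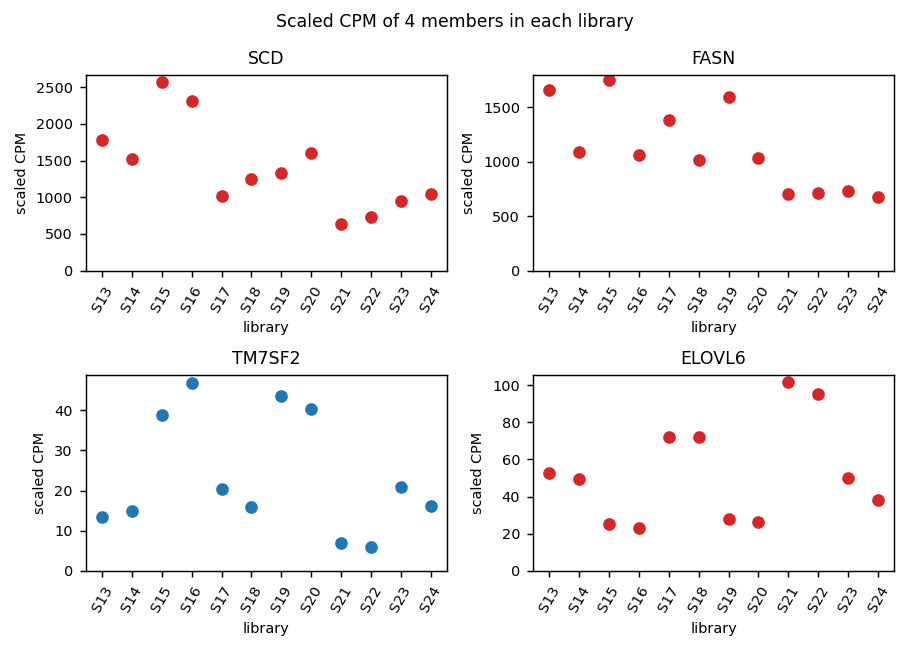
Scaled CPM of SCD, FASN, TM7SF2 and ELOVL6 in each of 12 libraries, 1 point per library, with each axis starting at 0. SCD is highest in S15 and S16, FASN falls into 3 bands, and ELOVL6 is lowest in the 4 libraries where TM7SF2 is highest.

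FADS1, a desaturase of polyunsaturated fatty acids, was the lowest member per kilobase and spanned 1.92-fold. It had 8.66 scaled CPM in S18, 8.47 in S16, 8.07 in S14, 7.29 in S13, 6.95 in S17, 6.84 in S20, 6.26 in S15 and 6.11 in S22. It had 4.92 scaled CPM in S21, 4.79 in S23, 4.74 in S24 and 4.52 in S19. At a median of 67 fragments, neighbours in this order are not told apart from counting error. ACACA, the acetyl-CoA carboxylase that commits carbon to fatty acids, spanned 2.04-fold, FADS2 1.66-fold, ACLY 1.57-fold and ACSL3, which activates long-chain fatty acids, 1.44-fold.

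Co-variation was described with Pearson's r of log2 CPM over the 12 libraries, which mix 4 treatments, so that r carries no p. Among the sterol enzymes the median r over 153 pairs was 0.75, and 62 pairs reached 0.8. The 10 pairs of regulators had a median r of 0.78. The 36 pairs of fatty acid genes had a median r of 0.20, and 3 of them reached 0.8. Across arms, the median r was 0.48 for sterol enzymes with fatty acid genes, 0.66 for sterol enzymes with regulators and 0.30 for regulators with fatty acid genes. All pairs of the 12504 genes had a median r of -0.001, and 3.37% of them reached 0.8. Over the 8 libraries without S21 to S24 the medians were 0.51 for the sterol enzymes, 0.43 for the regulators and 0.07 for the fatty acid genes. Across arms they were 0.08 for sterol enzymes with fatty acid genes, 0.20 for sterol enzymes with regulators and 0.04 for regulators with fatty acid genes. Of the 153 sterol pairs, 19 then reached 0.8, against 4.3% of all pairs of genes.

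**Figure D4:**
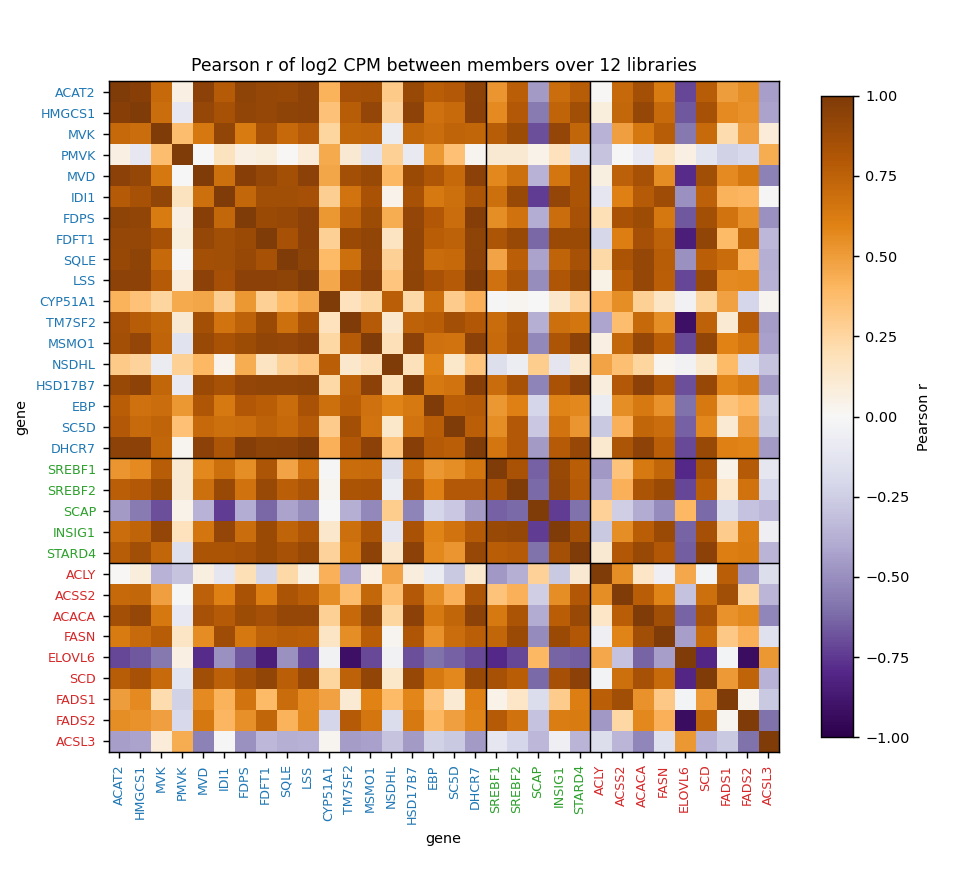
Pearson's r of log2 CPM over 12 libraries for every pair of members, with lines between sterol enzymes, regulators and fatty acid genes. The sterol block is mostly dark orange except for PMVK, CYP51A1 and NSDHL, and SCAP, ELOVL6 and ACSL3 run against most members.

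Within the sterol arm, LSS followed the mean of the other enzymes most closely at r = 0.99, then DHCR7 at 0.97, ACAT2 at 0.96, FDFT1 at 0.95 and MVD at 0.94. LSS and DHCR7 were the closest pair of members, with r = 0.99 over 12 libraries and 0.97 over 8. PMVK (r = 0.14), NSDHL (0.32) and CYP51A1 (0.39) followed the arm least. Of the regulators, INSIG1 followed the others at 0.94 and SREBF2 at 0.89, while SCAP had r = -0.69. In the fatty acid arm ACSS2 (0.86), FADS1 (0.76) and ACACA (0.73) followed the others most, while ELOVL6 had r = -0.55 and ACSL3 -0.29. Over the 8 libraries without S21 to S24, LSS (0.95), DHCR7 (0.94), EBP (0.92) and FDPS (0.87) followed the other sterol enzymes most, and PMVK had 0.59, NSDHL 0.56 and CYP51A1 0.45. INSIG1 then had 0.91, SREBF2 0.65 and SCAP -0.62 with the other regulators. In the fatty acid arm the order did not hold over these 8: ACACA had -0.42 and ACSL3 0.64, beside 0.37 for ACSS2, 0.47 for FADS1 and -0.39 for ELOVL6.

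Several fatty acid genes lay closer to the sterol arm or its regulators than to their own. SCD had r = 0.86 with the sterol enzymes' mean and 0.92 with the regulators' mean, against 0.47 with the other fatty acid genes. ACACA had 0.88 with the sterol enzymes' mean. Over the 8 libraries these were 0.58, 0.78 and -0.16 for SCD, and 0.52 for ACACA. SCD and STARD4 had r = 0.95 over 12 libraries and 0.89 over 8. FASN had r = 0.88 with SREBF2 over 12 libraries and 0.87 over 8. These pairs were picked after the values were seen.

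The means of the arms, each the average of its genes' log2 CPM around their own mean, are shown by library. The sterol mean ran from 0.53 in S16 and 0.40 in S15 to -0.45 in S21 and -0.64 in S22. The fatty acid mean had a smaller spread, from 0.25 in S13 to -0.31 in S24. Over 12 libraries the sterol and fatty acid means had r = 0.71 and rho = 0.54, and r = 0.66 and rho = 0.31 without S22 and S21, the libraries farthest from the median. Over the 8 libraries without S21 to S24 r was -0.16, so the relation between the arms rested on those 4 libraries. The sterol and regulator means had r = 0.85 over 12 libraries and 0.38 over 8.

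**Figure D5:**
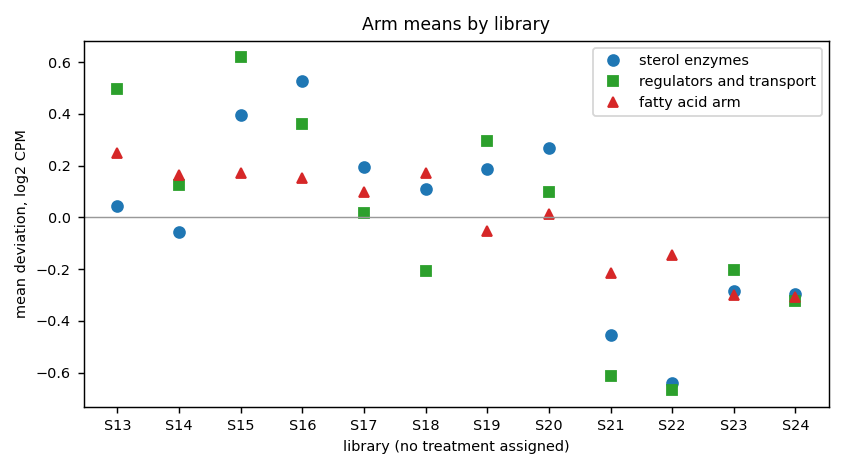
Mean deviation in log2 CPM of the sterol enzymes, the regulators and the fatty acid genes in each of 12 libraries. All 3 means lie below 0 in S21 to S24, and the sterol mean is highest in S16.

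Measures of the libraries moved with the arms. The number of detected genes had r = 0.91 with the sterol mean, 0.93 with the regulator mean and 0.83 with the fatty acid mean over 12 libraries. Over the 8 libraries without S21 to S24 these were 0.49, 0.84 and 0.02. The TMM factor, 0.94 to 0.98 in S21 to S24 and 1.01 to 1.04 in the others, had r = 0.86 with the sterol mean. The summed blood, fibroblast and endothelial markers had r = 0.67 with it, and the total fragments 0.03. These were -0.01, -0.04 and 0.18 over the 8 libraries. With the fatty acid mean over the 8 libraries, the TMM factor had r = -0.70 and the summed markers -0.82, and the total fragments had 0.75 with the regulator mean. The part of these measures in the co-variation was not tested.

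Of 15 further genes of the sterol pathway, 14 passed the filter. Of these, 11 spanned 1.5-fold and 5 spanned 2-fold, close to the 76.5% and 40.8% of all genes. Their median r with the sterol mean was 0.11, and 0.08 over the 8 libraries. The proteases of SREBF cleavage had r with that mean of 0.29 (MBTPS1) and -0.74 (MBTPS2), and INSIG2, the relative of INSIG1, had r = -0.64. Without S21 to S24 these were 0.45, -0.72 and 0.47, so the sign for INSIG2 turned.

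Of 7 genes listed for sterol efflux and its nuclear receptors, 5 passed the filter: NR1H2, NR1H3, MYLIP, LPCAT3 and SMPDL3A. The efflux transporters ABCA1 and ABCG1 did not pass, so the values here do not cover them. MYLIP, LPCAT3 and SMPDL3A, 3 of the 5, spanned 2-fold (40.8% of all genes). LPCAT3 shared 65.6% of its exonic bases, mainly with EMG1. The 5 had a median r of 0.59 with the sterol mean, and 0.54 over the 8 libraries. Of 16 further fatty acid genes, 14 passed the filter and 5 spanned 2-fold, again beside 40.8% of all genes. Their median r with the fatty acid mean was 0.25, and 0.02 over the 8 libraries. SLC25A1, which exports citrate from mitochondria, spanned 1.73-fold and had r = 0.83 with the sterol mean. SCD5, a relative of SCD, spanned 2.09-fold and had r = -0.73 with it. SLC25A1 had 0.54 and SCD5 0.24 over the 8 libraries, so the sign for SCD5 turned.

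Outside these lists, the genes closest to the sterol mean over 12 libraries were CSTA and SLC9A3 (r = 0.98 each), TMEM161B-AS1 and CTD-2228K2.7. Closest to the regulator mean were HOXA-AS2, NCOA3, MLLT6 and ZNF292 (r = 0.97 each). Closest to the fatty acid mean were LUC7L3 (r = 0.96), MSL1, FAM92A1 and CTC-338M12.4. These 12 genes had r of 0.69 to 0.97 with the same means over the 8 libraries. They are given by likeness of pattern only, out of 12504 genes.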

How the data were processed

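RNA of 12 HCC1954 cultures was purified with a Qiagen kit and made into directional NEBNext libraries, per the labels' protocols. The authors counted fragments per gene with featureCounts 1.4.6-p2 in paired mode on GENCODE 25 exons by gene name, with no strand, overlap or multi-mapping option, per the file headers. FastQC 0.11.5, Trim Galore 0.4.5, STAR 2.4 and SAMtools 1.2 were used on hg38, per the submitters' processing notes. The command names 24 alignment files, and the deposited table holds counts in 12 columns, which no label ties to a sample or treatment. No 2 columns were identical.

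CPM, RPKM (on the deposited exonic length), TMM factors and log2 CPM (prior count 2) were computed with edgeR 4.0.16 in R 4.3.3 and with Python 3.11.15, after filterByExpr without groups. Intervals of a ratio are exact at 95% and cover counting error only. The calculations were tested on simulated data. DESeq2 1.42.0 size factors, CPM of the total, no filter, Spearman's rho and leaving out each library were alternatives. Full values are given for the 3 members of each role with the widest span at a median of 50 fragments or more, and for the highest and lowest per kilobase. FASN and the ratios and pairs said to be picked later are outside that rule, as are the motifs. The members and lists were chosen with earlier results of these data known. The 37 mitochondrial genes held no fragments, so they gave no measure of RNA quality. Values of some listed genes are not reported here.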

Additional observations from a re-analysis of the deposited data

How the results depend on the processing

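No value had a test or a replicate error, so a value was called moved when a correlation changed by over 0.1, a span by over 10% or a count by over 1.5 times. Of 64 recomputed values, 52 kept within these limits. Leaving out S21 to S24, the libraries with the fewest detected genes, was chosen after seeing the data. It lowered the members past 1.5-fold to 18, against 28, and those past 2-fold to 7, against 23. The median span became 1.459 for the sterol enzymes and 1.713 for the fatty acid genes, and the median r became 0.51 within the sterol enzymes, 0.069 within the fatty acid genes and 0.076 between the arms. The r of the arm means turned to -0.164. The cause was not tested. The fatty acid genes' median r was 0.331 on CPM of the total and 0.071 with TMM and no filter on low counts. The r of the arm means was 0.588 with TMM and no filter, and Spearman's rho was 0.538. Leaving out 1 library at a time gave 27 to 28 members past 1.5-fold and 20 to 23 past 2-fold, median spans of 2.237 to 2.285 (sterol) and 1.933 to 2.044 (fatty acid), and median r of 0.683 to 0.799 within the sterol enzymes, 0.142 to 0.323 within the fatty acid genes (0.323 without S18) and 0.412 to 0.523 between the arms. The r of the arm means was 0.66 to 0.75. No paired analysis was possible because no library could be tied to a sample or treatment. CYP51A1 had the lowest median count of the members, at 39 fragments (23 to 110), so counting error limits it most. It also shared 82.2% of its exonic bases, and the part of this in its low count was not tested.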

Other observations

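The sterol means of the 12 libraries, in log2 CPM around each gene's own mean, were 0.53 in S16, 0.40 in S15, 0.27 in S20, 0.19 in S17 and S19, 0.11 in S18, 0.05 in S13 and -0.06 in S14. They were -0.28 in S23, -0.30 in S24, -0.45 in S21 and -0.64 in S22. The widest gap in this order lay between S14 and S23, which is also the gap between the 8 libraries with more and the 4 with fewer detected genes. The regulator mean had no such gap, with -0.21 in S18 and -0.20 in S23.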
